A study of Saccharomyces cerevisiae with 19 samples.

Results

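A set of 10 genes of fatty acid and phospholipid synthesis in budding yeast was followed through ribosome footprints, mRNA and the ratio between the 2. They were chosen by their place in the pathway, with earlier results of these data known: ACC1, FAS1, FAS2, OLE1, ELO1, ELO2, ELO3, INO1, CHO1 and OPI3, 10 of the 5758 genes listed in the series. All 10 had reads in every one of the 19 libraries and all 10 passed the filter on low counts in every test. The cells were wild-type BY4741, a haploid laboratory strain, grown in YPD (rich medium with glucose) from an OD600 of 0.02 to 0.4. They were given cycloheximide for 1 min to hold ribosomes on their messages, filtered and frozen. Lysis also had cycloheximide, at 100 µg per ml, and the size given for footprints was 28 to 32 nt. The study asked how the design of the linker and the reverse transcription primer shapes footprint and mRNA libraries. No group differed in genotype or growth. The groups, named as in the sample titles, were footprints of DualLigation (n = 3), 4+3N low, Nonrandom low, 4+3N, 4N and Nonrandom (n = 2 each), and mRNA-seq of 4+3N, 4N and Nonrandom (n = 2 each). The labels do not say what low stands for.

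Fatty acids are built in the cytosol from acetyl-CoA. Acetyl-CoA carboxylase makes malonyl-CoA, and the fatty acid synthase, a large barrel of alpha and beta subunits in equal number, strings these units into saturated chains. A desaturase and membrane-bound elongases then finish the chains. Phospholipids are made by joining such chains to glycerol phosphate and adding a head group, and in yeast many of the enzymes are turned down when inositol and choline are at hand, through the activator pair Ino2 and Ino4 and the repressor Opi1.

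ACC1 (YNR016C) encodes acetyl-CoA carboxylase and lies on chromosome XIV from 654673 to 661374 (sacCer3 positions from the RefSeq annotation of the R64 assembly). FAS1 (YKL182W), for the beta subunit of fatty acid synthase, lies on chromosome XI from 100671 to 106826, and FAS2 (YPL231W), for the alpha subunit, on chromosome XVI from 108652 to 114315. OLE1 (YGL055W), for the delta-9 fatty acid desaturase, lies on chromosome VII from 398628 to 400160. The 3 elongase genes are ELO1 (YJL196C) on chromosome X from 67850 to 68782, ELO2 (YCR034W) on chromosome III from 190592 to 191635 and ELO3 (YLR372W) on chromosome XII from 867354 to 868391. INO1 (YJL153C), for inositol-3-phosphate synthase, which makes inositol from glucose 6-phosphate, lies on chromosome X from 134332 to 135933. CHO1 (YER026C), for phosphatidylserine synthase, lies on chromosome V from 207644 to 208474, and OPI3 (YJR073C), for a methyltransferase of phosphatidylcholine synthesis, on chromosome X from 572315 to 572935. No member overlaps another annotated gene. ACC1, FAS1 and FAS2 are the long members, with coding lengths of 6702, 6156 and 5664 bases, against 621 bases (OPI3) to 1602 bases (INO1) in the other 7.

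Counted reads per library ran from 6735945 to 13478946 in the standard footprint libraries, from 827353 to 2667016 in the low libraries and from 1838817 to 3497303 in mRNA-seq. The count lists follow 2 different gene orders, one in the 7 DualLigation and low libraries and another in the other 12, so DualLigation and low cannot be told apart from whatever set that order. Levels are given as CPM, the reads of a gene scaled to equal library totals. As markers of the MATa strain, STE2, the pheromone receptor made in a cells, had 123 to 797 CPM, STE3, the receptor made in alpha cells, reached 7.61 CPM at most, MFA1 and MFA2 had reads in all 19 libraries, and MF(ALPHA)1 reached 0.436 CPM at most. LEU2 had 1 read over all libraries, URA3 and MET17 had 0, and HIS3, of which the strain keeps a part, lay between 58.3 and 123 CPM. Whether replicates came from separate cultures is not stated, so the p-values speak only for the spread among these libraries, which may be technical.

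The 10 genes together took 0.899% to 0.951% of reads in the 6 standard footprint libraries other than DualLigation, against 0.493% to 0.535% in the 6 mRNA-seq libraries. ACC1, FAS1 and FAS2 alone held 82.6% to 84.3% of the members' footprint reads and 60.5% to 65.2% of their mRNA reads. Per coding length, FAS1 had the highest footprint level of the 10, with a mean of 521 ± 19.99 CPM per kb (SD, n = 6), which ranked 320 of 5754 genes. FAS2 followed at 396 ± 10.9 CPM per kb and ELO3 at 381 ± 23.1 CPM per kb, and the ranges of these 2 genes overlapped. ACC1 stood at 333 ± 8.35 CPM per kb, below ELO3 in each of the 6 libraries. CHO1 at 279 ± 16.3, ELO2 at 276 ± 15.6 and OLE1 at 274 ± 14.5 CPM per kb had overlapping ranges. ELO1 at 168 ± 8.32 and OPI3 at 64.7 ± 4.05 CPM per kb stood below these, each without overlap with the next. INO1 was last, with a mean of 0.772 ± 0.281 CPM per kb, at rank 5290.

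In mRNA the order was another one, with ELO3 and ELO2 on top. ELO3 had the highest mRNA level of the 10 at 595 ± 54.4 CPM per kb (SD, n = 6), rank 271 of 5754. ELO2 at 343 ± 20.8, CHO1 at 317 ± 29.0 and ELO1 at 274 ± 27.5 CPM per kb came next. The ranges overlapped between ELO2 and CHO1 and between CHO1 and ELO1. In each of the 6 libraries ELO2 lay above CHO1, and CHO1 above ELO1. FAS2 at 188 ± 8.33, OLE1 at 186 ± 10.2 and FAS1 at 185 ± 8.29 CPM per kb could not be ranked against each other, since their ranges overlapped. OPI3 at 159 ± 5.37 and ACC1 at 149 ± 3.87 CPM per kb also overlapped. INO1 was again last at 7.13 ± 2.20 CPM per kb. FAS1, first of the members in footprints, thus stood below the elongase genes and CHO1 in mRNA, in a range that overlapped with those of FAS2 and OLE1.

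**Figure D1:**
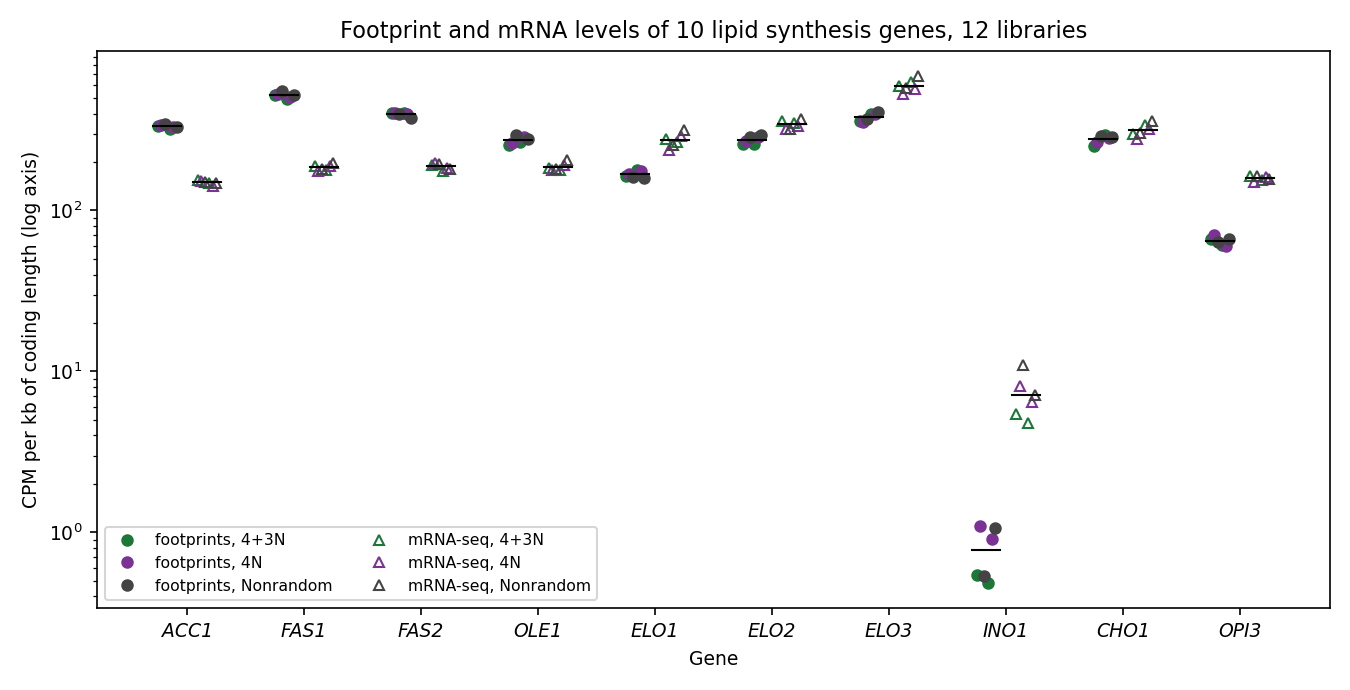
Levels of the 10 genes per library, in CPM per kb of coding length on a log axis. Filled circles are the 6 footprint libraries and open triangles the 6 mRNA-seq libraries of 4+3N, 4N and Nonrandom, with a bar at each mean; the circles of ACC1, FAS1, FAS2 and OLE1 lie above their triangles, and INO1 lies far below the other genes in both assays.

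The footprint to mRNA ratio, often called translation efficiency, was high for ACC1, FAS1, FAS2 and OLE1 and lowest for INO1. It was tested as a difference between assays within each of the 3 preparations and averaged over them (edgeR's quasi-likelihood test, 6 footprint and 6 mRNA-seq libraries, TMM scaling). Of all 5523 genes tested, 84.7% passed at an adjusted p under 0.05, 40.2% with more footprints than mRNA and 44.5% with fewer. Among the members 9 of 10 passed, 6 up and 3 down, so the number that passed is close to that of genes at large, and the sizes carry the description. The members' median was 0.30 (log2), beside −0.04 over all genes tested. TMM scaling brings the typical gene near 0. By library totals without TMM factors the median of all genes stood at −0.59, with 17.3% of genes up and 69.8% down. All 10 members then passed, 4 up (ACC1, FAS1, FAS2 and OLE1) and 6 down. Each ratio is therefore given relative to the typical gene.

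FAS1 had footprint levels of 3019, 3211 and 3379 CPM (lowest, median and highest of 6 libraries), against 1083, 1139 and 1218 CPM in mRNA-seq. Its log2 ratio was 2.04 (SE 0.06, edgeR adjusted p = 1.91e-16), higher than that of 99.3% of genes tested. ACC1 had footprint levels of 2150, 2237 and 2306 CPM, against 956, 1002 and 1031 CPM in mRNA-seq. Its log2 ratio was 1.71 (SE 0.05, adjusted p = 3.56e-16), higher than that of 98.4% of genes. FAS2 had footprint levels of 2122, 2267 and 2285 CPM, against 997, 1068 and 1115 CPM in mRNA-seq, and a log2 ratio of 1.63 (SE 0.05, adjusted p = 8.59e-16). In all 3 genes the footprint and mRNA-seq libraries were far apart with no overlap, in each preparation. Among the 84 genes with a coding length of at least 5000 bases the median log2 ratio was −0.03, and FAS1, ACC1 and FAS2 ranked 4, 9 and 10 of them. Genes with mRNA levels from 149 to 188 CPM per kb, the range that spans these 3 genes and OLE1, had a median of 0.43 (181 genes), with 65.2% up. Over 5521 genes with a length the Spearman correlation of the ratio was 0.477 with the mRNA level per kb and −0.226 with length, as a description across genes that share these 12 libraries. The ratio and the mRNA level share the mRNA counts.

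OLE1, whose product puts the double bond into most yeast unsaturated fatty acids, had footprint levels of 393, 417 and 453 CPM, against 272, 281 and 314 CPM in mRNA-seq. Its log2 ratio was 1.11 (SE 0.05, adjusted p = 1.98e-13). The 3 elongases, which lengthen the chains at the endoplasmic reticulum, stood near the typical gene. ELO2, which serves sphingolipid precursors, had a ratio of 0.23 (SE 0.05, adjusted p = 0.000249; 0.14 and adjusted p = 0.306 with the first count list of Nonrandom footprints replicate 1), with 269, 291 and 306 CPM in footprints, against 334, 357 and 386 CPM in mRNA-seq. ELO1, which acts on shorter chains, had −0.15 (SE 0.06, adjusted p = 0.0315). This call did not hold with another scaling, the size factors of DESeq2 (adjusted p = 0.0543), and in the DESeq2 test (adjusted p = 0.0723). It was also lost without any one of footprints 4N replicate 2, Nonrandom replicate 2 and 4+3N replicate 1 or mRNA-seq 4+3N replicate 1, Nonrandom replicate 2 and 4N replicate 2, with adjusted p between 0.0541 and 0.165. ELO3, which makes the longest chains, had −0.09 (SE 0.05, adjusted p = 0.109) and did not pass, but did without mRNA-seq Nonrandom replicate 1 (−0.14, adjusted p = 0.0162) and by library totals (−0.64, adjusted p = 5.47e-10). ELO3 had 367, 398 and 425 CPM in footprints, against 547, 607 and 710 CPM in mRNA-seq, the largest mRNA pool per length of the 10 genes. By library totals the ratio of ELO2 turned to −0.32, still 0.27 above the median of all genes.

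Among the phospholipid enzymes, CHO1, whose product makes phosphatidylserine from CDP-diacylglycerol, had footprint levels of 210, 238 and 245 CPM, against 232, 260 and 298 CPM in mRNA-seq. Its log2 ratio was 0.37 (SE 0.06, adjusted p = 1.11e-05) and turned to −0.18 by library totals, 0.41 above the median of all genes. OPI3, which adds the last methyl groups of phosphatidylcholine, had 37.5, 40.3 and 44.0 CPM in footprints, against 93.8, 98.8 and 102 CPM in mRNA-seq. The groups did not overlap, and the ratio was −0.74 (SE 0.07, adjusted p = 6.59e-09), higher than that of 24.6% of genes tested. INO1 had 6 and 6 reads in 4+3N footprints, 19 and 15 in 4N and 10 and 15 in Nonrandom. In mRNA-seq it had 18 and 19 reads in 4+3N, 43 and 19 in 4N and 40 and 40 in Nonrandom, from libraries of smaller depth. As CPM this came to 0.781 to 1.75 in footprints, against 7.61 to 17.5 in mRNA-seq. The log2 ratio was −2.66 (SE 0.21, adjusted p = 7.55e-10), lower than in all but 5.8% of genes. By level per length INO1 ranked 5290 of 5754 genes in footprints and, by its mean, at the same rank in mRNA-seq. Across genes the ratio tended to be lower at lower mRNA levels (Spearman correlation 0.477), and INO1 was not compared with genes of its own level.

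**Figure D2:**
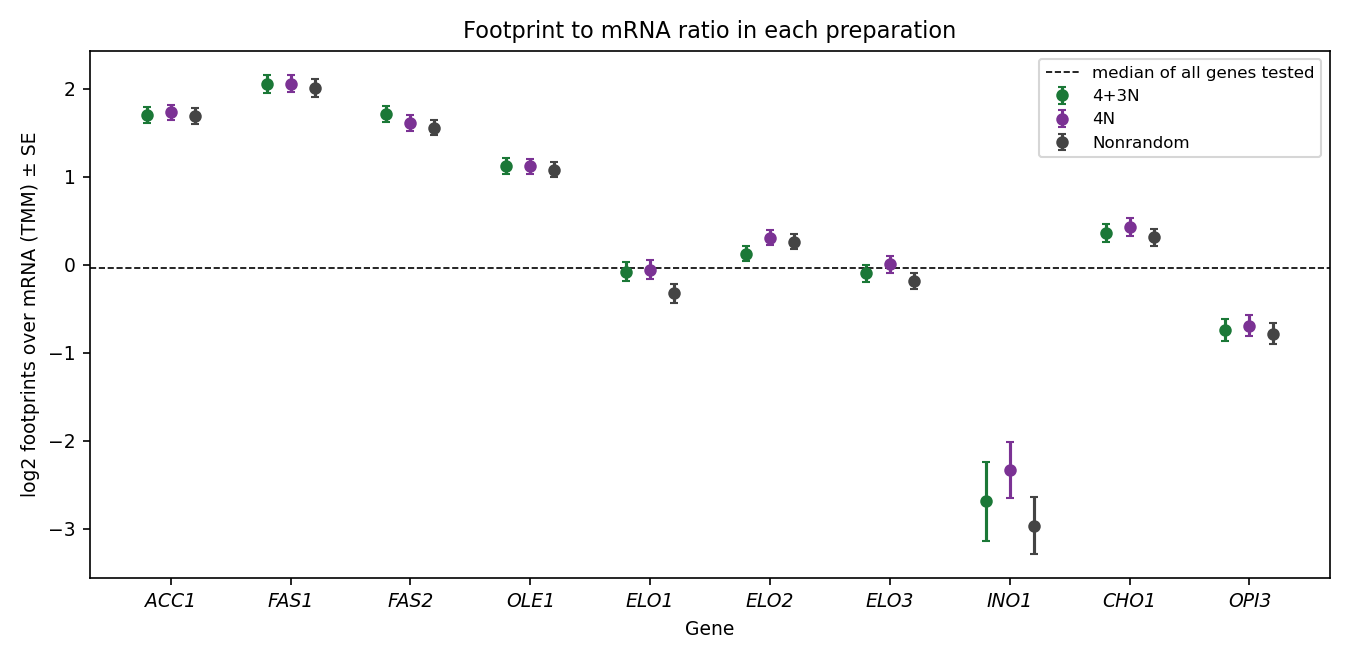
Log2 footprint to mRNA ratio of each gene in 4+3N, 4N and Nonrandom (TMM scaling, points with SE, 2 footprint and 2 mRNA-seq libraries per point), with the median of all genes tested as a dashed line. ACC1, FAS1, FAS2 and OLE1 lie above 1 in all 3 preparations, and OPI3 and INO1 lie below −0.6.

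Within single preparations the order of the genes was much the same. In 4+3N, 5 members were up and 2 down, where 73.8% of genes passed (34.9% up, 39% down). In 4N, 6 were up and 2 down, where 74.4% passed (35.3% up, 39.1% down). In Nonrandom, 6 were up and 3 down, where 73.6% passed (34.9% up, 38.7% down). FAS1 stood at 2.05 in 4+3N, 2.06 in 4N and 2.01 in Nonrandom. FAS2 stood at 1.71, 1.61 and 1.56, and OPI3 at −0.74, −0.70 and −0.78, in the same order of preparations. No member's ratio differed between preparations by edgeR's test of the difference itself, in 4+3N against Nonrandom (0.0543% of genes passed), 4N against Nonrandom (0%) or 4+3N against 4N (0.0543%), with 0 members at an unadjusted p under 0.05 and 0 by DESeq2 in each. The widest differences were those of INO1, at 0.63 (4N over Nonrandom) and −0.35 (4+3N over 4N), which rest on the counts given above. The differences for the other 9 genes ran from −0.18 to 0.27.

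The alpha and beta subunits of fatty acid synthase enter the complex in equal number, so the proportion of FAS1 to FAS2, as counts per coding length, was taken in each library. It does not depend on library size or scaling. In footprints FAS1 stood at 1.30 and 1.22 times FAS2 in 4+3N, 1.32 and 1.29 times in 4N and 1.38 and 1.39 times in Nonrandom. In mRNA-seq it stood at 0.983 and 1.01 times in 4+3N, 0.894 and 1.02 times in 4N and 0.933 and 1.09 times in Nonrandom. All 6 footprint libraries lay above all 6 mRNA-seq libraries. The mean was 1.32 ± 0.0619 in footprints and 0.988 ± 0.0689 in mRNA-seq (SD, n = 6 each), a 1.33-fold difference. An exact two-sided permutation test that exchanged the assay within preparations gave p = 0.00926, the smallest its 216 arrangements allow. In mRNA-seq replicate 1 lay below replicate 2 in each preparation. In footprints it lay above replicate 2 in 4+3N and 4N and below it in Nonrandom. Same-numbered libraries were paired across preparations within an assay, so n = 6 may overstate the replication behind this p and these SDs. The 2 subunit genes thus had mRNA levels per length that overlapped and footprint levels per length that did not. The 95% exact binomial interval of a single library, which covers counting error only, ran from 1.27 to 1.32 in 4+3N footprints replicate 1 and from 0.928 to 1.04 in 4+3N mRNA-seq replicate 1. In Nonrandom mRNA-seq the intervals of the 2 replicates did not overlap (0.883 to 0.986 and 1.04 to 1.14), so the replicates differed by more than counting error.

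The proportion in the remaining footprint libraries lay in the same region. In DualLigation it was 1.31, 1.31 and 1.32, inside the range of the other 6 standard footprint libraries, 1.22 to 1.39 (exact two-sided permutation test, p = 0.940, smallest possible 0.0238). In the low libraries it was 1.23 and 1.21 in 4+3N low and 1.31 and 1.35 in Nonrandom low, against 1.30 and 1.22 in 4+3N and 1.38 and 1.39 in Nonrandom. The low libraries averaged 0.966 times the standard ones within preparations (exact two-sided permutation test, p = 0.111). That design cannot go below 0.0556.

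**Figure D3:**
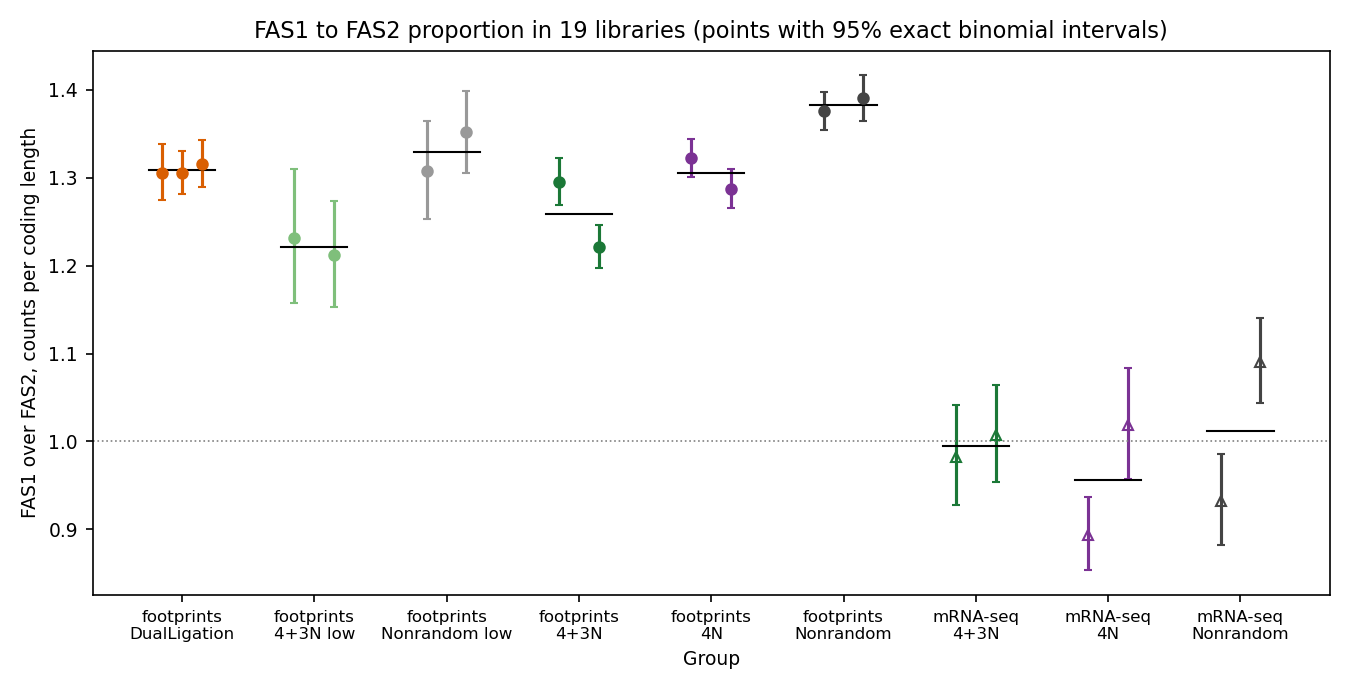
FAS1 over FAS2 as counts per coding length in all 19 libraries, by group, with a bar at each group mean and 95% exact binomial intervals for counting error on each point; the axis does not start at 0. Footprint libraries (circles) lie between 1.21 and 1.39 and mRNA-seq libraries (triangles) between 0.894 and 1.09, around the dotted line of equal levels.

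DualLigation footprints were higher for OLE1 and lower for the elongase genes and CHO1. The preparation was compared with the mean of 4+3N, 4N and Nonrandom footprints (3 against 6 libraries, edgeR, TMM scaling), where 65.7% of 5300 genes passed, 33.1% up and 32.6% down. Among the members 2 rose and 4 fell, so the number that passed is close to that of genes at large. OLE1 lay higher than 85.3% of genes tested. ELO2 lay higher than 15.2%, ELO1 than 15.6%, CHO1 than 26% and ELO3 than 36.9%. By library totals 17.3% of genes were up and 55.1% down, with 1 member up (OLE1) and 8 down. The fit shared its estimate of the spread over all groups, while DualLigation replicates could spread more widely. For ELO1 the SD was 18.5 CPM around a mean of 46.8 in DualLigation. It was 10.3 around 160 in 4+3N, 4.21 around 161 in 4N and 2.02 around 149 in Nonrandom. SEs and p-values for DualLigation may thus be too small for such genes. OLE1 had 693, 610 and 587 CPM in DualLigation, against 393 to 453 CPM in the other 6 libraries, with no overlap. It rose by 1.26 (SE 0.09, adjusted p = 1.46e-05). All 3 elongases fell. ELO2 had 95.01, 94.5 and 56.3 CPM in DualLigation, against 269 to 306 CPM, and fell by 1.15 (SE 0.16, adjusted p = 0.000308). ELO1 had 66.7, 43.6 and 30.0 CPM, against 148 to 168 CPM, and fell by 1.11 (SE 0.16, adjusted p = 0.000443). ELO3 had 253, 167 and 154 CPM, against 367 to 425 CPM, and fell by 0.40 (SE 0.11, adjusted p = 0.0119), a call lost with the first count list (−0.27, adjusted p = 0.353). CHO1 had 128, 82.5 and 62.4 CPM, against 210 to 245 CPM, and fell by 0.72 (SE 0.15, adjusted p = 0.00265). By library totals these 5 calls stayed, with OLE1 at 0.58, ELO2 at −1.81, ELO1 at −1.75, ELO3 at −1.05 and CHO1 at −1.35.

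In the fatty acid synthase and carboxylase genes the DualLigation differences did not pass. FAS1 had 2324, 2036 and 1995 CPM in DualLigation, against 3019 to 3379 CPM, and a TMM-scaled difference of 0.08 (SE 0.11, adjusted p = 0.564). FAS2 had 0.08 (SE 0.10) and ACC1 −0.13 (SE 0.10). All 3 were lower in CPM without overlap, and the median of all genes by library totals stood at −0.71 in this comparison, and by library totals all 3 passed as lower, FAS1 at −0.60, FAS2 at −0.59 and ACC1 at −0.79 (adjusted p from 0.00157 to 0.0025). The sign for FAS1 and FAS2 thus depends on the scaling. OPI3 had 35.6, 18.0 and 24.8 CPM in DualLigation, against 37.5 to 44.0 CPM, and a difference of 0.02 (SE 0.16), which became −0.63 (adjusted p = 0.0248) by library totals. INO1 had 7, 39 and 14 reads in DualLigation, and its ranges of CPM overlapped with those of the other libraries. It rose by 1.28 (SE 0.48, adjusted p = 0.0433), a call that rests on replicate 2: without that library the value was 0.59 (adjusted p = 0.27). The INO1 call was also lost without any one of the 6 other libraries (adjusted p from 0.0608 to 0.114) and by library totals (0.57, adjusted p = 0.303).

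**Figure D4:**
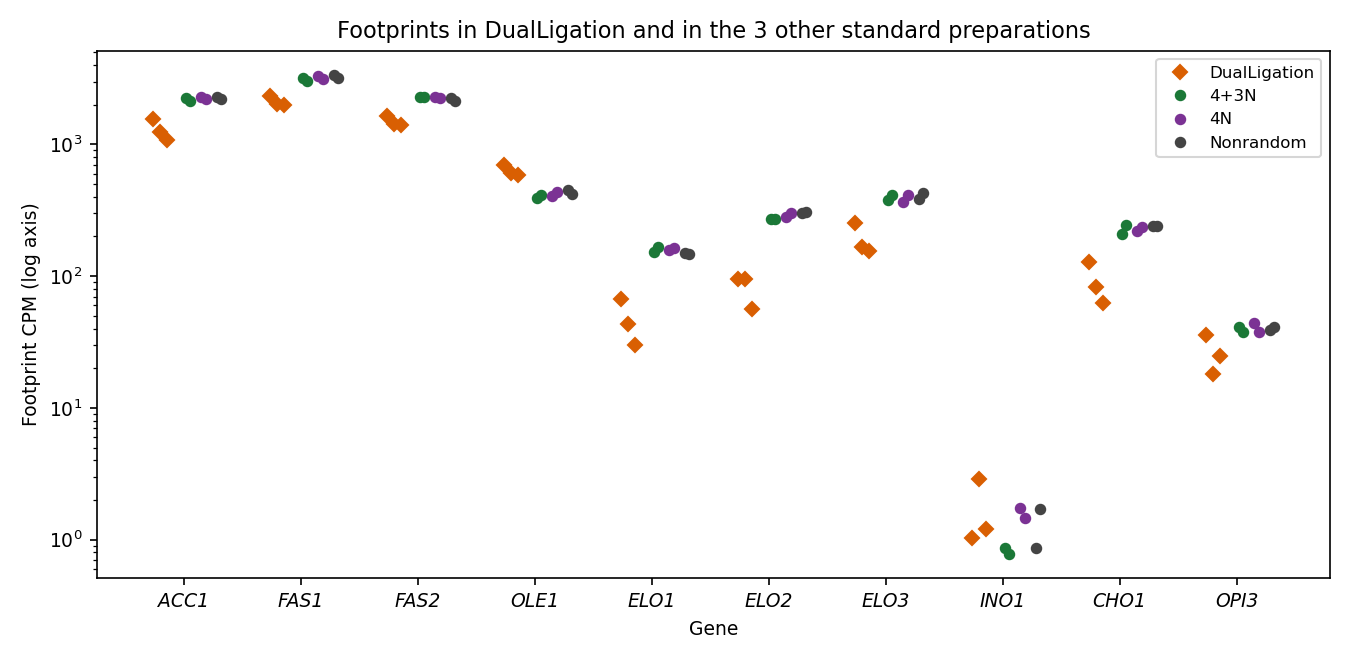
Footprint CPM of the 10 genes on a log axis in the 3 DualLigation libraries (diamonds, left) and the 6 libraries of 4+3N, 4N and Nonrandom (circles, right). DualLigation lies higher for OLE1 and lower, without overlap, for the other genes except INO1, before TMM scaling.

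Among 4+3N, 4N and Nonrandom no member differed past the threshold of edgeR's test. In footprints 0 members passed in 4+3N against Nonrandom (0.399% of 5268 genes passed, 0.304% up and 0.0949% down), 4N against Nonrandom (0.133%) and 4+3N against 4N (0.133%), with 0 at an unadjusted p under 0.05 and 0 by DESeq2 in each. The members other than INO1 had log2 differences from −0.14 to 0.13 in 4+3N over Nonrandom, where ELO2 was lowest and ELO1 highest. In mRNA-seq 0 members passed in 4+3N against Nonrandom (0.222% of 5415 genes passed), 4N against Nonrandom (0.185%) and 4+3N against 4N (0%). One member, INO1 in 4+3N over Nonrandom at −0.82 (SE 0.30), had an unadjusted p under 0.05, beside 197 of all 5415 genes. DESeq2 called 0 members in each. For the other 9 genes the mRNA differences over Nonrandom ran from −0.21 to 0.02.

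In the low libraries 0 members passed in 4+3N low against 4+3N (0.569% of genes passed, 0.513% up and 0.0569% down) or Nonrandom low against Nonrandom (1.27%, 0.911% up and 0.361% down). An unadjusted p under 0.05 was found for 1 and 3 members, beside 606 and 534 of all 5268 genes tested. ELO1 had the smallest p in both. In 4+3N low it had 176 and 173 CPM, against 153 and 168 CPM in 4+3N. In Nonrandom low it had 164 and 195 CPM, against 151 and 148 CPM in Nonrandom. The low libraries were higher without overlap in both preparations. The differences were 0.23 (SE 0.10, edgeR adjusted p = 0.39) and 0.33 (SE 0.09, adjusted p = 0.0942). With replicate numbers as a block the Nonrandom value passed, at 0.34 (SE 0.07, adjusted p = 0.0028), as it did by DESeq2 (adjusted p = 0.0283). OLE1 had 481 and 475 CPM in Nonrandom low, against 453 and 423 CPM in Nonrandom, and a difference of 0.19 (SE 0.08, adjusted p = 0.435). ACC1, FAS1 and FAS2 had differences between −0.05 and 0.03 in both preparations. INO1 had 1 read in each 4+3N low library and 5 and 3 in Nonrandom low, too few to show a difference of any but a large size. The change from standard to low did not differ between preparations for any member by the test of that difference (0.19% of genes passed, 0 members at an unadjusted p under 0.05, 0 by DESeq2).

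**Figure D5:**
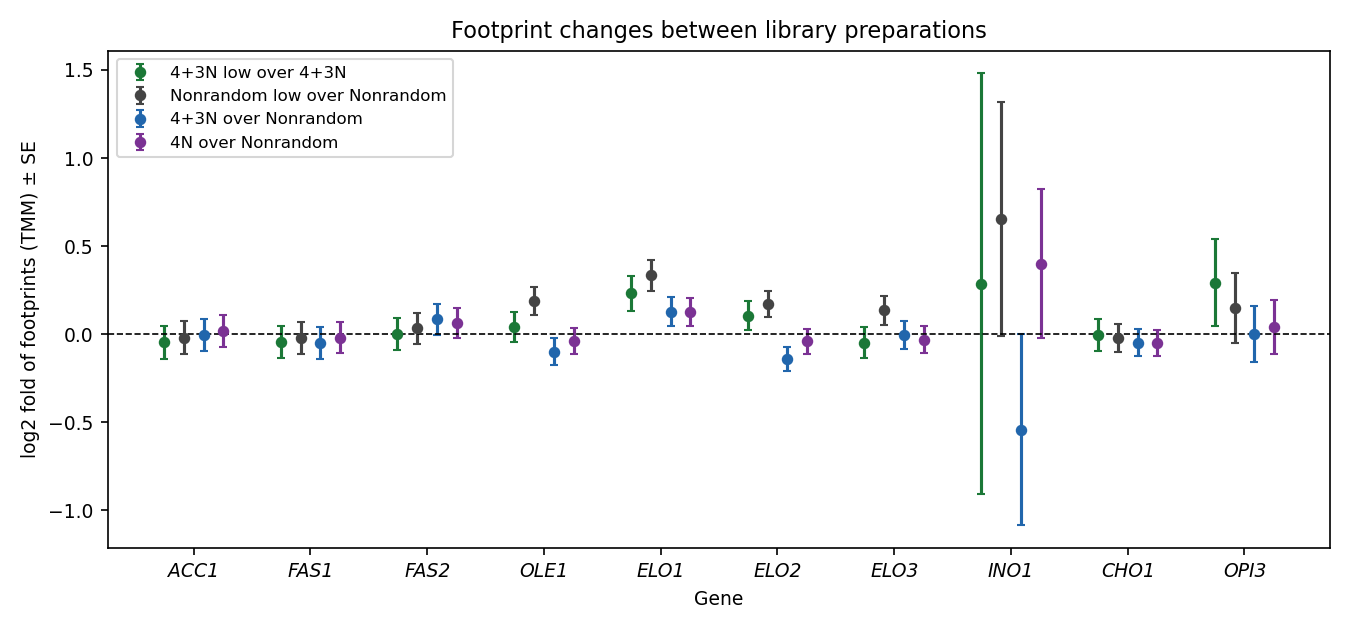
Log2 differences in footprints of each gene (TMM scaling, points with SE) for 4+3N low over 4+3N, Nonrandom low over Nonrandom, 4+3N over Nonrandom and 4N over Nonrandom. No point passed edgeR's test at an adjusted p under 0.05 without a replicate block. ELO1, at 0.33 in Nonrandom low, passed by DESeq2 and with the block. The wide bars belong to INO1.

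The wider pathway was read from 5 lists of 50 other genes, all of which were tested. In the averaged footprint to mRNA ratio 16 of the 50 were up and 26 down, with a median of −0.23, beside 40.2% up, 44.5% down and −0.04 over all genes. Among 11 genes of acyl-CoA supply, activation and elongation 6 were up and 4 down (median 0.19). ACB1, the acyl-CoA binding protein, stood at 1.44 (SE 0.05), and the acyl-CoA synthetases FAA1 and FAA4 at 0.67 (SE 0.05) and 0.58 (SE 0.04). FAA2, the peroxisomal synthetase, stood at −1.90 (SE 0.11), HFA1, the mitochondrial acetyl-CoA carboxylase and a relative of ACC1, at −1.84 (SE 0.09), and FAA3 at −0.57 (SE 0.05). Among 9 genes of phosphatidic acid and CDP-diacylglycerol 4 were up and 4 down (median 0.02). The acyltransferase genes GPT2 and SLC1 stood at 0.66 (SE 0.06) and 0.52 (SE 0.05), and DGK1, diacylglycerol kinase, at 0.19 (SE 0.07). SCT1, the other glycerol-phosphate acyltransferase, stood at −0.59 (SE 0.05), TAM41, the mitochondrial CDP-diacylglycerol synthase, at −0.62 (SE 0.10), and ALE1 at −0.34 (SE 0.07).

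Among 14 genes of the phospholipid branches 2 were up and 8 down (median −0.24). CKI1, choline kinase, stood at 0.66 (SE 0.07) and INM1, inositol monophosphatase, at 0.47 (SE 0.08). PGS1, of cardiolipin synthesis, stood at −2.25 (SE 0.09), and the phosphatidylserine decarboxylases PSD2 and PSD1 at −1.48 (SE 0.07) and −0.89 (SE 0.07). CHO2, whose product adds the first methyl group ahead of OPI3, had 0.09 (SE 0.05, adjusted p = 0.101) and did not pass. Among 7 genes of mitochondrial fatty acid synthesis 2 were up and 4 down (median −0.25). ACP1, the acyl carrier protein, stood at 1.86 (SE 0.08) and ETR1, the enoyl reductase, at 0.72 (SE 0.05), while PPT2, HTD2 and CEM1 stood at −2.64 (SE 0.19), −1.36 (SE 0.10) and −0.58 (SE 0.09). Among 9 regulators and inositol transporters 2 were up and 6 down (median −0.51). The activator pair was split, with INO4 at 0.85 (SE 0.13) and INO2 at −1.17 (SE 0.12). OPI1, the repressor, stood at −0.96 (SE 0.07). SCS2, which tethers Opi1 at the endoplasmic reticulum, stood at 1.45 (SE 0.06), and ITR2, an inositol transporter, at −1.26 (SE 0.06). MGA2 and SPT23, the activators of OLE1, stood at −0.57 (SE 0.06) and −0.41 (SE 0.06). Each gene given a value here other than CHO2 passed edgeR's test.

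In DualLigation 19 of these 50 genes rose and 16 fell (median −0.09), beside 33.1% up, 32.6% down and a median of −0.05 over all genes. Of the 9 regulators and transporters 6 rose and 0 fell there, with SPT23 at 3.48 (SE 0.22), SCS2 at 1.26 (SE 0.20) and MGA2 at 1.23 (SE 0.14). Of the 7 mitochondrial fatty acid synthesis genes 0 rose and 3 fell, with HTD2 at −1.87 (SE 0.44).

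The genes most like FAS1, FAS2 and ACC1 over the 19 libraries were ranked by Pearson's r of log2 CPM, among genes with a mean of at least 20 CPM (4251 others). The libraries fall into footprints and mRNA-seq, with DualLigation apart, so the ranking mostly follows those steps, and it is given as a description. Nearest to FAS1 were STI1, RSP5 and ATP1 (r from 0.986 to 0.988), with FAS2 at rank 4 and ACC1 at rank 19. Nearest to FAS2 were SRO9, MET6 and PAB1 (r from 0.992 to 0.994), with ACC1 at rank 4 and FAS1 at rank 7. Nearest to ACC1 were PAB1, SSE1 and SRO9 (r from 0.988 to 0.994), with FAS2 at rank 7 and FAS1 at rank 28. OLE1 came at ranks 268 to 598 in the 3 orders, and ELO1, ELO2, ELO3, CHO1 and OPI3 at rank 1238 or later.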

How the data were processed

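The authors deposited, for each library, a table of read counts per gene, in whole numbers. A gene that a table does not list was counted as 0. Per the submitters' processing notes CASAVA 1.8, Bowtie 1.0.0 and the sacCer3 genome were used. How reads were assigned to genes or strands is not given in the sources used here. The table of Nonrandom footprints replicate 1 lists 5559 genes a second time with other counts. The second list (total 11656814) was used, since it correlated better with replicate 2 across genes (Pearson r of log2 CPM 0.997, against 0.959 for the first, total 3520161). Titles were followed where one 4+3N library carries another replicate number among its characteristics. Names, lengths and positions came from the RefSeq table of R64 (5754 of 5758 identifiers matched). No sequence tables were used here.

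Counts were filtered (filterByExpr), TMM-scaled and tested by edgeR 4.0.16 quasi-likelihood F tests in R 4.3.3, two-sided, Benjamini-Hochberg adjusted over all genes tested, threshold 0.05. SEs are the absolute log2 fold over the square root of F. Separate fits held the standard footprint and mRNA-seq groups, the standard and low footprint groups without DualLigation, DualLigation with the 3 other standard groups, and mRNA-seq. Alternatives were DESeq2 1.42.0, its size factors, no filter, each library left out, the first count list, DualLigation in the fit, a replicate block and, added after seeing the data, library totals. The fits were also run on simulated counts drawn without a replicate effect, so that run does not cover the pairing given next. Deviations of same-numbered libraries correlated at 0.243 to 0.418 across genes among standard footprint groups and 0.107 to 0.251 in mRNA-seq, which are paired by the data. Between assays they ran from −0.004 to 0.097, just below the lowest value within an assay in that fit (0.102). Whether libraries pair between assays is thus not settled. With low groups they ran from −0.01 to 0.152, and 1 of 7 pairs of groups lay above 0.1. A floor of 3 counts equals 0.223 to 3.63 CPM. Other pathway genes are named where they passed in the averaged ratio (up to 3 in each direction per list) or act on a member. The members and lists were chosen with earlier results of these data known. SPT23, SCS2, MGA2 and HTD2 in DualLigation were named after their values were seen.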

Additional observations from a re-analysis of the deposited data

Results flagged for a closer look

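The first count list of Nonrandom footprints replicate 1, which entered no main test, also held the 10 genes, with 39667 reads. The FAS1 to FAS2 proportion in that list was 1.22, at the low end of the standard footprint libraries. OPI3 stood at 92.3 CPM in the first list, against 39.3 CPM in the second list and 41.3 CPM in replicate 2, and ELO1 at 253 CPM, against 151 and 148 CPM. What sample or run the first list holds is not stated in the sources used here.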

How the results depend on the processing

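The count of members that passed stayed within 1.5 times its main value in each comparison under each alternative run, with 1 exception: for Nonrandom low over Nonrandom it was 0 in the main test, 1 by DESeq2 and 1 with the replicate block (ELO1 in both). Leaving out 1 library gave 8 to 10 members in the averaged ratio and 5 to 6 in DualLigation. In the averaged ratio the block added ELO3 (adjusted p = 0.0403), so that 10 of 10 members passed, beside 86.7% of all genes. In that fit footprints and mRNA-seq share the replicate number, and whether they pair by it is not settled (correlations of at most 0.097). In Nonrandom the block also added ELO3 (adjusted p = 0.0239), with 10 members passing, beside 76.9% of all genes. Apart from these 3 comparisons member counts did not move with the block, while the share of all genes called in 4+3N over Nonrandom footprints went up to 5.62%. The FAS1 to FAS2 difference of 0.41 (log2) ran from 0.377 to 0.452 without single libraries. Paired by replicate number, the difference had an exact permutation p of 0.03125, the smallest that test allows. The pairing joins footprints to mRNA-seq, between which deviations of same-numbered libraries correlated at 0.097 at most, so whether they pair is not settled. By library totals the ratios of ELO2 and CHO1 reversed in sign. ELO2 stood at −0.32 on average, −0.26 in Nonrandom, −0.24 in 4N and −0.46 in 4+3N (adjusted p = 6.87e-05, not called in the main test). CHO1 stood at −0.18 on average, −0.22 in 4+3N, −0.12 in 4N and −0.20 in Nonrandom. All these values lay above the median of all genes. For CHO1 only the average passed edgeR's test (adjusted p = 0.00861). Its adjusted p was 0.0618 in 4+3N, 0.311 in 4N and 0.0773 in Nonrandom. With the first count list ELO2 in Nonrandom stood at −0.019, and calls were lost for ELO2 in 4N (adjusted p = 0.212) and for CHO1 in Nonrandom (0.015, adjusted p = 0.955), 4N (adjusted p = 0.0693) and 4+3N (adjusted p = 0.112). INO1, with 1 to 43 reads per library, is limited by depth.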
